A study of Mus musculus with 6 samples.

Results

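Markers of the crypt base stem cell and of the reserve stem cell were examined in Sox9-deficient jejunum. The 10 genes were Lgr5, Ascl2, Olfm4, Smoc2, Rgmb, Hopx, Bmi1, Prom1, Tnfrsf19 and Msi1, taken as every probe set annotated with one of these symbols alone. They had 25 probe sets among the 45037 on the array that are not controls, and each gene had at least 1 that could be tested. Crypt epithelium came from 3 Sox9-deficient mice (KO 1 to KO 3) and 3 wild-type littermate controls (WT 1 to WT 3), all of the C57BL/6 strain and 3 months old, with 1 single-colour Affymetrix array per mouse. The labels name neither the Sox9 allele, nor what drives its loss, nor the sex of each mouse. The study asked which genes Sox9 regulates.

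Stem cells of the small intestine lie at the base of the crypt, wedged between Paneth cells. These crypt base columnar cells divide often, depend on Wnt signals and carry Lgr5, a receptor for R-spondins that strengthens those signals. A second, more quiescent population a little higher in the crypt has been described as a reserve that can take over after injury, with Hopx and Bmi1 among its proposed markers, although their transcripts are also found in Lgr5-positive cells. Sox9 is itself active at the crypt base, in stem cells and Paneth cells.

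Values are log2 GCRMA intensities, in which 1 unit is a doubling and dim probe sets gather at a floor, here near 3 or lower. A probe set was tested where its mean over the 6 arrays was at least 4, which left 18108 probe sets in all and 18 of the 25 examined here. The other 7 (1 of Lgr5 and 2 each of Rgmb, Tnfrsf19 and Msi1) are given as values with no test. Differences are KO minus WT from limma, with p-values adjusted over all 18108 probe sets.

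None of the 18 probe sets passed an adjusted p of 0.05 in limma (0 of 18, against 0.011% of all probe sets tested). Below that threshold the genes did not behave alike. Rgmb read lower in the Sox9-deficient crypts on each of its 4 tested probe sets, and Hopx read higher on both of its own. Olfm4 and Bmi1 varied little over the 6 arrays. On the Lgr5 and Msi1 probe sets, all 3 of Ascl2 and the brighter of Smoc2, the lowest array was 1 control mouse, WT 2. It was also the lowest on both Hopx probe sets and on the brighter of Bmi1. At an unadjusted p under 0.05 there were 6 of 18 probe sets, against 3.62% of all tested: 3 lower, all of Rgmb (1.81% of all tested), and 3 higher, of Hopx and Tnfrsf19 (1.81%). The KO arrays all lay above the WT arrays on 4 probe sets (5.09% of all tested) and all below them on 3 (4.03%). Both counts of higher probe sets include that of Tnfrsf19, which passed the filter only through its KO values, so nothing is read from it there. Probe sets of the same gene read the same RNA samples and are not separate evidence, and the genes were chosen with earlier results of these arrays known. The median difference was 0.18 over the 18 probe sets and 0.03 over all tested, and without WT 2 these medians were -0.011 and 0.02. In whole-crypt RNA, fewer cells of a type and less RNA per cell cannot be told apart.

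The promoter windows of Hopx and Rgmb are shown because these were the members whose groups stayed apart on more than 1 tested probe set. They are from RefSeq (GRCm38.p6), from 250 bases before to 50 bases after an annotated start, written 5′ to 3′ along the gene. Capitals mark the SOX core motif, ACAAT or its reverse complement ATTGT. The TCF core, CTTTGA or TCAAAG, was searched too and is in none of these 4. Both genes have alternative starts, and a second Rgmb window that overlaps the upstream one is left out.
Hopx chr5:77115074-77115373, minus strand: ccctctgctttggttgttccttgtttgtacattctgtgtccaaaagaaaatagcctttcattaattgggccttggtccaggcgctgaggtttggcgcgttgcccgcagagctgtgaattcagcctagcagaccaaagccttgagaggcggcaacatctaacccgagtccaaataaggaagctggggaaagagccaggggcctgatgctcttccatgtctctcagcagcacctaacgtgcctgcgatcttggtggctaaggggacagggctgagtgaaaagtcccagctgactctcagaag
Hopx chr5:77095218-77095517, minus strand: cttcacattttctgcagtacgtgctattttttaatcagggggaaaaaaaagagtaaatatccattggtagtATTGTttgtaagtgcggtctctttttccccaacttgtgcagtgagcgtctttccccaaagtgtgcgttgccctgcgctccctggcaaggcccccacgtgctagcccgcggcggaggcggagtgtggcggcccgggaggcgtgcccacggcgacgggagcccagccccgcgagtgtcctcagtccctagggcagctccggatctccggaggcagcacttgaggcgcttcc
Rgmb chr17:15831197-15831496, minus strand: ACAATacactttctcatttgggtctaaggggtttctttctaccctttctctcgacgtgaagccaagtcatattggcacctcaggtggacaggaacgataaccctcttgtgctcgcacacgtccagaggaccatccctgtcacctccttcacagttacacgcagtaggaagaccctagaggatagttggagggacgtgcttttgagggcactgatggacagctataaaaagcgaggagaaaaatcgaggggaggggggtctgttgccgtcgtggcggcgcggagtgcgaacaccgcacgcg
Rgmb chr17:15826517-15826816, minus strand: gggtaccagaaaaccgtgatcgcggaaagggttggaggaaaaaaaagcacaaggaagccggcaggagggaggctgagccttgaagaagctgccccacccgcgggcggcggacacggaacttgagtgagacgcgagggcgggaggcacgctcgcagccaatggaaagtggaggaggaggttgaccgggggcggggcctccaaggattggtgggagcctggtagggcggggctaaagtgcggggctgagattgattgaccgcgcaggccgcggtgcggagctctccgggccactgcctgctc
The SOX core stood in the downstream Hopx window, beginning at position -179 from the start, and at the far end of the upstream Rgmb window, at -250. Of the 12 windows on hand for 7 of the 10 genes, 4 held the SOX core (in Rgmb, Hopx, Ascl2 and Bmi1) and 2 held the TCF core (in Prom1 and Tnfrsf19). Over all 32851 mouse windows of the same length, 31.0% held the SOX core and 16.0% the TCF core. These are matches of letters, and binding was not measured.

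Rgmb, also called Dragon, encodes a membrane-anchored co-receptor for bone morphogenetic proteins and is part of published crypt base stem cell signatures. Its brightest probe set (1428429_at) read 7.33, 7.01 and 7.62 on KO 1 to KO 3, against 9.03, 8.06 and 8.70 on WT 1 to WT 3. The 3 mutants lay below the 3 controls, with WT 2 the nearest to the mutants. The difference was -1.28 ± 0.30 (SE), or 2.42-fold, with a 95% confidence interval from -2.0 to -0.56, an unadjusted limma p of 0.00438 and an adjusted p of 0.871.

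A similar order was seen on other Rgmb probe sets. On 1433586_at the arrays read 6.71, 6.53 and 6.95 in KO, against 8.09, 7.27 and 8.24 in WT, a difference of -1.14 (interval -1.85 to -0.43). On 1442811_at they read 5.95, 6.39 and 6.68 in KO, against 8.67, 6.84 and 7.97 in WT, a difference of -1.49 (interval -2.62 to -0.36). On both, the groups did not overlap, and the exact two-sided permutation p was 0.1, the smallest that 3 mice against 3 allow. The dimmest tested probe set, 1433587_at, did overlap, since WT 2 at 5.99 lay among KO values of 5.92, 5.87 and 6.37, and its difference of -0.86 had an interval from -1.87 to 0.14. That difference became -0.53 without WT 1 and -1.32 without WT 2. Of the probe sets under the filter, 1428430_at averaged 3.82 in KO and 3.94 in WT, and 1459366_at stayed at 2.52 to 2.56 in KO, against 3.16, 2.58 and 3.74 in WT. All 6 Rgmb probe sets thus had a negative difference.

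WT 2 drew Rgmb differences toward 0. Without that array the difference on the brightest probe set was -1.54, and none of the 4 tested probe sets passed the adjusted threshold under any alternative tried (lowest adjusted p = 0.392 in limma).

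Y-linked transcripts also parted the mice. The mean of 3 Y-linked genes was 2.83, 2.72 and 2.71 on KO 1 to KO 3, against 7.85, 8.34 and 2.75 on WT 1 to WT 3. Adding Y-linked signal to the fit gave -1.42 on the brightest Rgmb probe set, and 0.68 and 0.86 on the brighter and dimmer of Hopx. The same term took 2 Ascl2 probe sets down to 0.32 (1460514_s_at) and 0.14 (1432018_at), but 1422396_s_at of Ascl2 up from 1.07 to 1.31. It also took the dimmer Smoc2 probe set to 0.98. It turned the sign for Lgr5 (-0.26), Msi1 (-0.060) and the brighter Smoc2 probe set (-0.18). The dimmer Bmi1 probe set moved to -0.34 and the brighter to 0.011. Signal was present on only 2 of 6 arrays, both WT. With this term in the fit, a difference therefore rests mainly on the KO arrays against WT 3, the only control without such signal. The part of sex in these differences was not tested further.

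**Figure D1:**
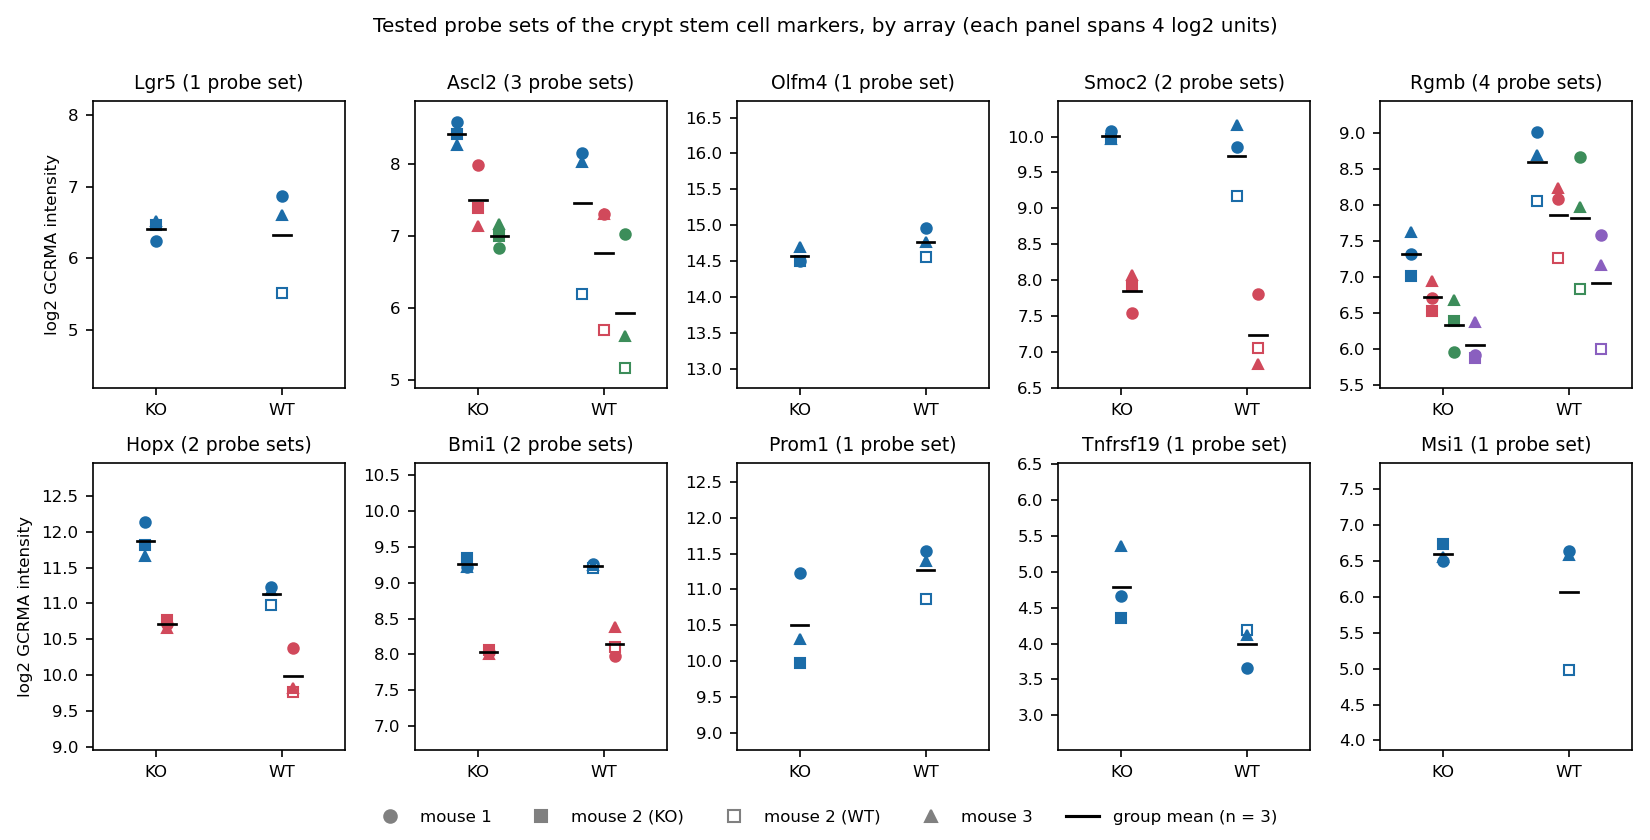
Log2 GCRMA intensity (vertical axes, each spanning 4 log2 units) of the 18 tested probe sets in KO (left) and WT (right) arrays, 1 panel per gene, with colours for probe sets of a gene from brightest (left) to dimmest. Symbols give the mouse number, the open square is WT 2 and black lines are group means of 3 mice. KO and WT points stay apart for Hopx, for 3 of 4 Rgmb probe sets, for the brightest Ascl2 probe set and for Tnfrsf19. The Tnfrsf19 probe set passed the filter only through its KO values. The open squares of Lgr5, Ascl2 and Msi1 lie below all other points of their probe set.

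Lgr5, the receptor that defines crypt base columnar cells, read 6.24, 6.47 and 6.52 on KO 1 to KO 3, against 6.86, 5.51 and 6.61 on WT 1 to WT 3. The mutants fell within the range of the controls, whose spread came from the low WT 2. The difference was 0.08 ± 0.36 (SE; limma adjusted p = 0.999), with an interval from -0.79 to 0.95 that takes in changes of either sign. Leaving out WT 2 turned the difference to -0.33. The other Lgr5 probe set lay at the floor, between 2.66 and 2.75 in KO and between 2.70 and 2.74 in WT.

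Olfm4, which encodes a secreted glycoprotein abundant in mouse and human crypt base stem cells, varied little. It read 14.50, 14.49 and 14.70 on the KO arrays, against 14.96, 14.56 and 14.77 on the WT arrays. The groups overlapped at WT 2, and the difference of -0.20 had an interval from -0.64 to 0.24. It was -0.10 without WT 1 and -0.30 without WT 2.

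Ascl2 encodes a basic helix-loop-helix transcription factor that responds to Wnt signals and maintains the crypt base stem cell state. On its brightest probe set (1460514_s_at) the arrays read 8.59, 8.42 and 8.27 in KO, against 8.16, 6.19 and 8.03 in WT. All KO arrays lay above all WT arrays, but KO 3 and WT 1 were close, and WT 2 lay far below every other array. The difference of 0.97 ± 0.52 (SE; interval -0.28 to 2.22) shrank to 0.34 without WT 2. The probe set 1432018_at showed the same low WT 2, at 5.69 against 7.30 on WT 1 and 7.31 on WT 3, with 7.99, 7.40 and 7.14 in KO, and its difference of 0.74 became 0.20 without that array. On the dimmest, 1422396_s_at, WT 3 was low as well (5.61, with WT 1 at 7.03 and WT 2 at 5.17), whereas KO read 6.84, 7.0 and 7.16, a difference of 1.07 that became 0.69 without WT 2 and 1.62 without WT 1.

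Smoc2, a matrix-associated protein gene of the crypt base signature, read 10.08, 9.97 and 9.96 in KO, against 9.86, 9.17 and 10.16 in WT on its brighter probe set. The difference of 0.27 (interval -0.39 to 0.93) was -0.0081 without WT 2. On the dimmer probe set, 7.54, 7.92 and 8.08 in KO stood against 7.81, 7.06 and 6.82 in WT, a difference of 0.62 (interval -0.11 to 1.34) that was 0.53 without WT 2. Here WT 3 was the lowest array, so the Smoc2 probe sets disagree on the order of the controls.

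**Figure D2:**
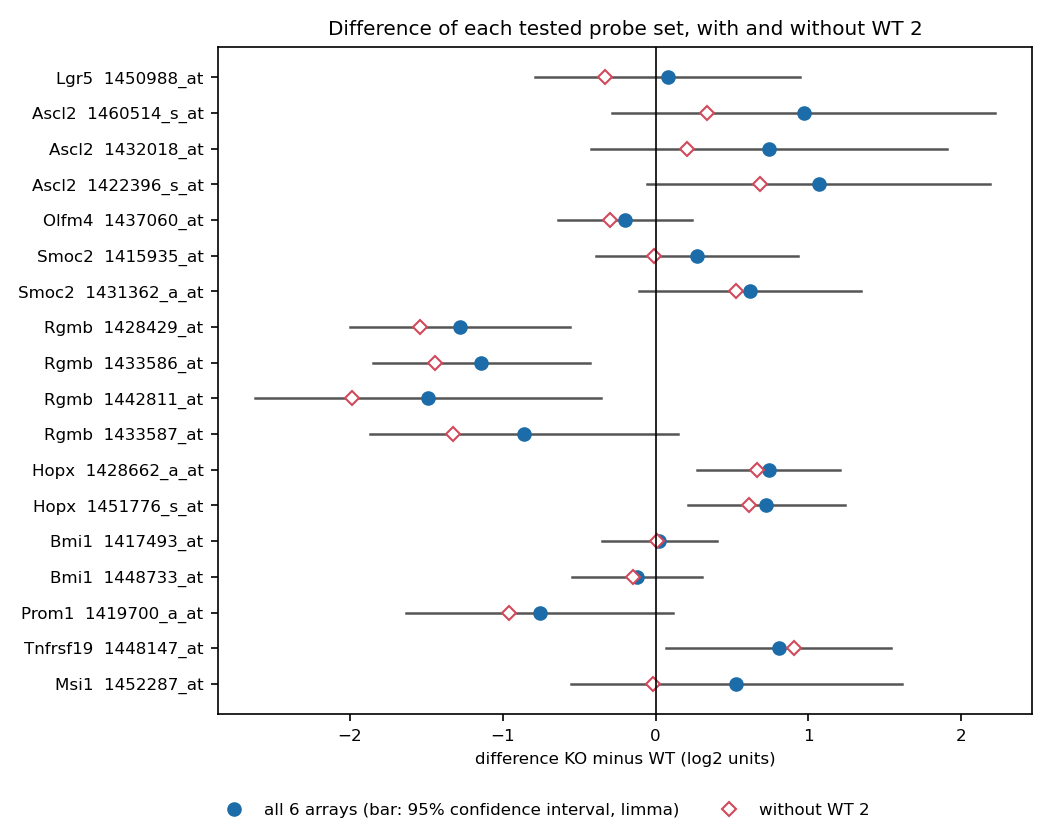
Difference KO minus WT in log2 units (horizontal axis) for each of the 18 tested probe sets (rows). Filled circles use all 6 arrays, bars are 95% confidence intervals from limma that are not adjusted for the number of probe sets, and open diamonds leave out WT 2. Both Hopx intervals and 3 of 4 Rgmb intervals lie clear of 0, as does that of Tnfrsf19, whose probe set passed the filter only through its KO values (WT mean 3.99), and the diamonds of Lgr5, Msi1 and the brighter Smoc2 probe set lie on the other side of 0 from their circles.

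Hopx encodes an unusual small homeodomain protein that does not bind DNA and is used to mark reserve stem cells. Its brighter probe set (1428662_a_at) read 12.14, 11.81 and 11.66 on KO 1 to KO 3, against 11.23, 10.98 and 11.19 on WT 1 to WT 3. Every KO array lay above every WT array, and the controls lay close together. The difference was 0.74 ± 0.20 (SE), or 1.67-fold, with an interval from 0.27 to 1.21, an unadjusted limma p of 0.00785 and an adjusted p of 0.999.

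The other Hopx probe set (1451776_s_at) gave nearly the same size of difference. It read 10.71, 10.77 and 10.66 in KO, against 10.37, 9.76 and 9.82 in WT, so that the groups again did not overlap. The difference was 0.73 ± 0.22 (SE; interval 0.21 to 1.24). Leaving out any array kept the differences of both probe sets between 0.61 and 0.92. Hopx kept its direction without WT 2, at 0.66 and 0.61, although WT 2 was the lowest array on both.

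Bmi1, a Polycomb repressor subunit first used to mark the reserve population, was the steadiest of the 10 genes. Its brighter probe set read 9.22, 9.35 and 9.22 in KO, against 9.25, 9.20 and 9.25 in WT, a range of 0.14 over all 6 arrays. The difference was 0.03 with an interval from -0.35 to 0.40. The dimmer probe set read 8.03, 8.06 and 8.0 in KO, against 7.98, 8.10 and 8.38 in WT, a difference of -0.12 (interval -0.55 to 0.30) that was -0.0085 without WT 3. The Hopx and Bmi1 values thus did not move together, and the difference between their responses was not tested.

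Prom1 encodes CD133, a membrane glycoprotein of protrusions that is found on stem cells and on the dividing cells above them. It read 11.23, 9.98 and 10.31 on the KO arrays, against 11.53, 10.87 and 11.40 on the WT arrays. KO 2 and KO 3 lay below all controls, and KO 1 lay among them. The difference of -0.76 (interval -1.63 to 0.12) was -0.49 without KO 2 and -1.12 without KO 1.

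Tnfrsf19, also called Troy, encodes a tumour necrosis factor receptor family member that is a Wnt target of crypt base cells. Its probe set 1448147_at read 4.66, 4.36 and 5.37 in KO, against 3.66, 4.19 and 4.12 in WT. All KO arrays lay above all WT arrays, but KO 2 and WT 2 differed by less than the spread within either group. The difference was 0.81 (interval 0.07 to 1.54) and was 0.52 without KO 3. Its limma p was 0.0362 unadjusted, and the adjusted p from limma was 0.999. The WT mean of 3.99 was itself just under the filter, so this probe set was tested because of its KO values, and it lies near the floor. The other 2 probe sets stood at 2.47 to 2.91 in KO and 2.5 to 2.97 in WT.

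Msi1 encodes Musashi-1, an RNA-binding protein of neural and intestinal progenitors. It read 6.50, 6.74 and 6.56 on KO 1 to KO 3, against 6.64, 4.99 and 6.58 on WT 1 to WT 3. All arrays but WT 2 lay between 6.50 and 6.74. The difference of 0.53 (interval -0.56 to 1.61) became -0.014 without WT 2. Its 2 other probe sets stayed at the floor, from 1.77 to 2.26 in KO and from 1.8 to 2.26 in WT.

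WT 2 was the lowest array on 9 of the 18 probe sets, against 20.7% of all probe sets tested. By gene, at the brightest tested probe set, it was lowest for 6 of 10, and its median deviation from the mean of the 6 arrays was -0.36, while the other 5 arrays lay between 0.10 and 0.25. Cell cycle genes were low on the same array. Over 19 such genes, all above the filter, the median deviation was -0.71 on WT 2, against 0.02 to 0.19 on the KO arrays and 0.10 and 0.12 on WT 1 and WT 3. Whether this moves the stem cell markers was not tested.

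Markers of other cells also differed between arrays. Paneth cell genes (7 of 8 above the filter, Habp2 under it) had summed log2 values of 77.28 to 93.48 in KO, against 97.20 to 102.08 in WT, with no overlap, and their part in the Rgmb and Hopx differences was not tested. The members of that list differed widely: Mmp7 averaged 7.98 in KO and 12.69 in WT, Defa31 read 2.95 on KO 1 and 16.51 on KO 3, against 15.88 to 16.20 in WT, and Ang4 averaged 14.75 in KO and 14.69 in WT. Villus enterocyte genes (11 of 11 above the filter) summed to 152.55 to 153.64 in KO, against 144.38 to 150.31 in WT, without overlap. Their members differed too: Treh averaged 11.51 in KO and 10.74 in WT, and Fabp2 15.52 and 15.53. Ada read 11.25 and 10.28 on KO 1 and KO 2 and 6.88 on KO 3, against 7.19 to 7.74 in WT. Without Ada the villus enterocyte sums of the groups overlap. The part of enterocytes was not tested. Sums of goblet, enteroendocrine and tuft cell genes overlapped between the groups, but single members did not all do so. Of the tuft cell genes, Dclk1 averaged 4.81 in KO and 6.49 in WT, without overlap, and Ltc4s 5.68 and 5.15. Of the enteroendocrine genes, Gcg averaged 9.45 in KO and 10.54 in WT and Cck 8.79 and 9.50, both without overlap, and Sst 9.36 and 9.04. Leukocyte genes (10 of 12 above the filter, Ms4a1 and Cd68 under it) summed to 76.60 to 84.79 in KO, against 62.71 to 80.54 in WT, lowest on WT 1. Bmi1, which leukocytes express too, deviated on WT 1 by 0.0071 on its brighter probe set and by -0.11 on its dimmer, where WT 1 was the lowest array, and the part of leukocytes was not tested. Of 13 stromal, muscle and endothelial genes, 12 were under the filter in the mean, including Col1a1, Pdgfra, Des and Pecam1, and Vim was above it. Epithelial genes (8 of 8 above the filter) summed to 107.63 to 110.06 in KO and 108.80 to 110.10 in WT. The Gapdh 3′ minus 5′ difference, a sign of RNA quality, was 0.37 to 0.91 in KO and 0.61, 0.65 and 1.75 on WT 1 to WT 3. Sox9 itself read 2.44, 2.75 and 2.42 in KO, against 7.61, 5.96 and 5.84 in WT on 1451538_at, whereas 1424950_at read 5.33, 6.34 and 5.76 in KO, against 6.23, 5.38 and 2.68 in WT, and 1433889_at read 3.16 to 3.28 in KO and 3.18 to 3.53 in WT.

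**Figure D3:**
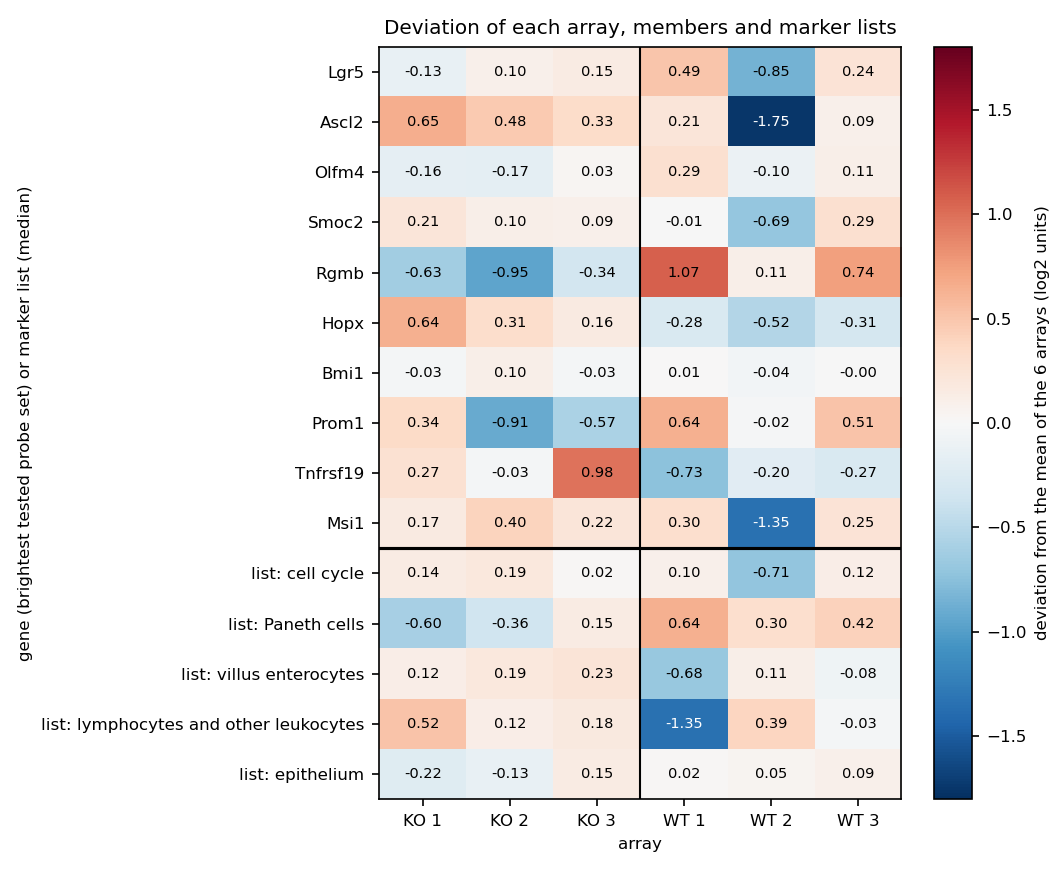
Deviation of each array (columns) from the mean of the 6 arrays in log2 units (colour and printed values), for each gene at its brightest tested probe set (upper rows) and as the median of 5 marker lists (lower rows). On WT 2, Ascl2 (-1.75), Msi1 (-1.35), Lgr5 (-0.85) and Smoc2 (-0.69) are low together with the cell cycle list (-0.71). Hopx is positive on all 3 KO arrays and also lowest on WT 2 (-0.52). Rgmb is positive on all 3 WT arrays at this probe set, but its other tested probe sets, not shown, are negative on WT 2.

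Other genes of crypt stem cells showed a similar mixture. Of a list of 40, 38 were on the array and 35 were tested at their brightest probe set. After adjustment over all probe sets 1 of 35 passed (0.011% of all tested), Igfbp4, which encodes a binding protein for insulin-like growth factors and belongs to published crypt base signatures. Igfbp4 fell to 4.84, 4.55 and 4.70 in KO, against 7.91, 8.19 and 8.35 in WT, a difference of -3.45 (limma adjusted p = 0.0142). The call ended without KO 2 (adjusted p = 0.0945), KO 3 (0.0533), WT 1 (0.0797) or WT 2 (0.109), and also under a replicate block, without the filter or with Y-linked signal in the fit. The difference itself stayed between -3.57 and -3.35 with an array left out and was -3.63 with Y-linked signal in the fit. Igfbp4 entered the list with its change already known.

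The other 34 did not pass. Differences were positive in 20 of the 35 genes and negative in 15, with a median of 0.05 that was -0.07 without WT 2, and WT 2 was the lowest array in 13. KO arrays lay all above WT in 3 genes (5.09% of all probe sets tested) and all below in 2 (4.03%). Axin2, the feedback inhibitor of Wnt signalling, read 9.79, 10.02 and 10.37 in KO, against 9.45, 8.34 and 9.56 in WT, a difference of 0.94 that was 0.55 without WT 2 and 0.45 with the Y-linked term. Nrn1, which encodes the membrane-anchored protein neuritin, averaged 7.20 ± 0.80 in KO (SD, n = 3) and 4.80 ± 1.68 in WT (SD, n = 3), a difference of 2.40 that was 0.57 with the Y-linked term. For Rassf5, which encodes a Ras effector, the means were 6.94 ± 0.16 in KO and 6.12 ± 0.62 in WT, and the difference of 0.82 was 0.24 with the Y-linked term and 0.51 without WT 1. The difference of Rnf43, the ubiquitin ligase that removes Wnt receptors, was 0.71, or 0.47 without WT 2. Among genes that read lower, the adhesion molecule gene Alcam differed by -0.54 with no overlap, the R-spondin receptor gene Lgr4 by -0.38 and the ion cotransporter gene Slc12a2 by -0.49, or -0.83 without WT 2. Each of these 7 genes had an adjusted p of 0.999 in limma.

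The closest profiles were sought for each member among the tested probe sets of other genes, as the smallest root mean square difference of mean-centred log2 values over the 6 arrays. With 9679 genes to choose from and only 6 arrays, close profiles are easily found. Neighbours were picked for likeness, so a shared order of the arrays follows from the choice and is no separate evidence. Rgmb was nearest to Cdc42ep1 (0.14 log2 units) and Qsox2 (0.23). Cdc42ep1 read 4.68, 4.41 and 4.61 in KO, against 6.29, 5.23 and 5.79 in WT, with WT 2 again the lowest control. Hopx was nearest to Haus8 (0.08) and Nup62 (0.08), both with all KO arrays above all WT arrays.

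The genes with a low WT 2 had neighbours of the same shape. Lgr5 was nearest to Ncl, which encodes the nucleolar protein nucleolin (0.07), and Pus7 (0.08), Ascl2 to Trim30a (0.16) and Kifc1 (0.20), Smoc2 to Umps (0.04) and Maz (0.04), and Msi1 to Zc3h8 (0.09) and Rad54b (0.10). In all 8 of these neighbours WT 2 was the lowest array, which follows from their choice by profile. Ncl, for example, read 8.66, 8.94 and 8.98 in KO, against 9.22, 7.97 and 8.87 in WT. For the rest, Olfm4 was nearest to Nap1l1 (0.03) and Enoph1 (0.05), Prom1 to Marcksl1 (0.16) and Ggh (0.17), Tnfrsf19 to Hsd17b11 (0.13) and Cited2 (0.15), and the nearly flat Bmi1 to Ndufb2 (0.02) and Recql5 (0.02).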

How the data were processed

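Total RNA of jejunal crypts was hybridised to 1 Affymetrix array per mouse. The deposited values are log2 intensities of 45101 probe sets, made with GCRMA per the submitters' processing notes, which also name limma. Neither comes with a version or setting there. GCRMA normalizes the arrays together and compresses dim probe sets toward a floor. Array controls (64) were left out. Symbols come from the platform annotation, and all 10 members kept theirs when matched by gene identifier to RefSeq. No probe set of several symbols held a member. Having 3 arrays a group limits precision.

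Differences were fitted with lmFit and eBayes of limma 3.58.1, R 4.3.3 (4 residual and 2.59 prior degrees of freedom, two-sided, Benjamini-Hochberg over 18108 probe sets). On simulated data the fit called 64.9% of added differences of 2 log2 units and 91.4% of those of 4. Smaller differences, such as those of the members, were not simulated. Members, gene lists and the naming rule (every member probe set, and in the list of 40 the called genes and the 4 of smallest p each way) were chosen with earlier results of these data known. The 15 alternatives were a replicate block, other filters, normalizations and priors, array weights, 1 probe set per gene, a Y-linked term and each array left out. Each limma p-value sets a difference against the spread within the groups of these 6 mice, moderated by that of all probe sets tested.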

Additional observations from a re-analysis of the deposited data

How the results depend on the processing

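The count of 0 called member probe sets held under all 15 alternatives. Over all probe sets, the 2 calls became 0 with a replicate block, 0 with no filter, 1 with a filter at 6, 4 under quantile normalization, 11 with array weights, 0 with the Y-linked term and 0 to 16 with an array left out. The 1 call in the list of 40 became 0 with the replicate block, with no filter and with the Y-linked term, and 0 to 1 with an array left out. Same-numbered KO and WT arrays did not deviate together (correlations -0.049, -0.285 and 0.025). With so few arrays a group, these correlations cannot decide whether the numbers pair the mice. Of 261 member differences recomputed, 8 turned sign: Lgr5 (-0.26 with the Y-linked term, -0.33 to 0.35 with an array left out), the brighter Smoc2 probe set (-0.18, and -0.0081 to 0.49), Msi1 (-0.060, and -0.014 to 0.81) and the brighter Bmi1 probe set (-0.0064 under quantile normalization, and -0.018 to 0.048). For these, and for the calls that ended or appeared, the cause was not tested. With an array left out, Lgr5, Smoc2 and Msi1 turned sign without WT 2, and Bmi1 without KO 2.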
